A study of Saccharomyces cerevisiae with 4 samples.

Results

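Divergent gene pairs are neighbouring genes that are transcribed away from each other, so that their promoters lie in the same stretch of DNA between them. They were examined here in newly made RNA of budding yeast (Saccharomyces cerevisiae) with and without the rapamycin that is meant to take Ssl2 out of the nucleus. A pair was taken wherever a minus-strand transcript with a systematic open reading frame name ended 1 to 300 bp before the start of a plus-strand one, with no other such transcript between them. This gave 451 pairs on 16 chromosomes, whose 902 members were 19.1% of the 4729 transcripts with such names, out of 6030 annotated transcripts in all. The rule used positions only and no measured value, though it was chosen with earlier results of these data known. A minus-strand transcript ends, in chromosome coordinates, where its transcription starts, so the gap holds the upstream DNA of both sides.

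There were 2 libraries from cells with rapamycin and 2 from cells without it. All 4 came from a single strain of genotype Y40343 Ssl2-FRB::kanMX6, in which Ssl2 carries an FRB tag, so the controls also carry the tag. In the anchor-away method rapamycin ties an FRB-tagged protein to an anchor that leaves the nucleus. The cells grew in YPD at 30 C from an OD600 of 0.1 to one of 0.8, and RNA made during 6 min in 5 mM 4-thiouracil was purified for sequencing. The rapamycin dose and exposure time are not given in the labels, nor whether replicates were separate cultures. The p-values therefore reflect only how far these 4 libraries scatter, which could be technical scatter. SSL2 itself was not analysed here.

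As background, Ssl2 is the DNA translocase of the general transcription factor TFIIH, which opens promoter DNA for RNA polymerase II. In yeast, intergenic DNA between divergent genes is often a single nucleosome-depleted region with a preinitiation complex assembled at each edge. The 2 complexes fire in opposite directions, and an activator bound between them can act on a single side or on both. The divergent histone gene pairs are a textbook case of such sharing, whereas many other divergent neighbours have unrelated functions.

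The gaps ran from 44 to 300 bp, with a median of 191 bp and an interquartile range of 159.5 to 219.5 bp. Only 9 gaps were of 100 bp or less, 260 were over 100 and up to 200 bp and 182 over 200 and up to 300 bp. Start codon to start codon, the median distance was 286 bp over the 444 pairs where both codons were known. None of 9 textbook divergent pairs met the rule. The 4 histone pairs HTA1-HTB1, HTA2-HTB2, HHT1-HHF1 and HHT2-HHF2 had gaps of 709, 650, 580 and 631 bp, MAL31-MAL32 had one of 305 bp, and the other 4 did not have both members among the annotated transcripts used. In 11 pairs a noncoding transcript overlapped the gap. In 322 pairs a member overlapped another annotated transcript, most often on the opposite strand (412 of the 426 overlapping members).

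The gaps of 9 pairs are shown, those of pairs whose values are given in full: 3 whose sides rose together, 2 whose sides fell together, 2 that moved apart, 1 with a ribosomal protein gene on a single side, and the shortest gap. Each is the plus strand of R64 from left to right, read between the starts of the 2 transcripts, and is intergenic by the rule for pairs. Capitals mark matches on either strand to 5 motifs: PAC (GCGATGAG, found upstream of ribosome assembly genes), Reb1 (TTACCCG, bound by a general regulatory factor), Hsf1 (TTCNNGAA), Msn2 (AGGGG) and the TATA box (TATAAAAA, TATAAAAG, TATAAATA, TATAAATG, TATATAAA, TATATAAG, TATATATA or TATATATG). The names give the plus-strand gene before the minus-strand gene.
GFD2/SRO9, chrIII:58746-59025: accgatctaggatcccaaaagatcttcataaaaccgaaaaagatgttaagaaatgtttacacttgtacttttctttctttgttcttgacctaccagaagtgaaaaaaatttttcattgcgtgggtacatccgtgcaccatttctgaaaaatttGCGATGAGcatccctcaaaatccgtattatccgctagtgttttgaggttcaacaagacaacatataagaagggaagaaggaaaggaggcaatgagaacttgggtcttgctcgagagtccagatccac
NOP2/GCD10, chrXIV:510242-510496: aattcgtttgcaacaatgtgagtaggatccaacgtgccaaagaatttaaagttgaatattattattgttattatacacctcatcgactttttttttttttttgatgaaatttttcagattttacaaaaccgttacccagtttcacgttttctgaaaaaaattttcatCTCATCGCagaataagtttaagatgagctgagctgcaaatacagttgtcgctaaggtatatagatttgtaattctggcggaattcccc
NOP8/CTR9, chrXV:52840-53049: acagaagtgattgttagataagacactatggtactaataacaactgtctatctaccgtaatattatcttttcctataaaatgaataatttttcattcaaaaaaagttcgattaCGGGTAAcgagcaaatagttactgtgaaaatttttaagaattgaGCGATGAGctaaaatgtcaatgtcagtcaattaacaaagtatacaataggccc
TAH11/SSC1, chrX:521742-522034: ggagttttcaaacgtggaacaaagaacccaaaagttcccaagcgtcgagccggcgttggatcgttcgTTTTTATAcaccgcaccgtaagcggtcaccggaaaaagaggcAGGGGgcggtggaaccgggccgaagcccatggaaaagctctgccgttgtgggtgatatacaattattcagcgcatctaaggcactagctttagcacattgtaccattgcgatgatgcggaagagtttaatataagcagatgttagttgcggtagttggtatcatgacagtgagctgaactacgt
AIM22/RTT101, chrX:352213-352353: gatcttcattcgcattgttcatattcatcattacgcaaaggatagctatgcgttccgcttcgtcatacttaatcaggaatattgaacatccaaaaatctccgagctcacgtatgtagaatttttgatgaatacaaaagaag
CDC4/WWM1, chrVI:115773-115952: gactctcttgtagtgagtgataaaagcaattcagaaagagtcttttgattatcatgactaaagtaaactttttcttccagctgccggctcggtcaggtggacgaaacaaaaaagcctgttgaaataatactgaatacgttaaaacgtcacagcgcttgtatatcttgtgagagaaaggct
KAR2/TAD2, chrX:381055-381288: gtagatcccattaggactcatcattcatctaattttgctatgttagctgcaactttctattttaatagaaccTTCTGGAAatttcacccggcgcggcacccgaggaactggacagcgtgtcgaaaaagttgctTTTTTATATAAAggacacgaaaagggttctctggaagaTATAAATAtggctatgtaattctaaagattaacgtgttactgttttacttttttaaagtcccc
GLN4/RPS28A, chrXV:649020-649274: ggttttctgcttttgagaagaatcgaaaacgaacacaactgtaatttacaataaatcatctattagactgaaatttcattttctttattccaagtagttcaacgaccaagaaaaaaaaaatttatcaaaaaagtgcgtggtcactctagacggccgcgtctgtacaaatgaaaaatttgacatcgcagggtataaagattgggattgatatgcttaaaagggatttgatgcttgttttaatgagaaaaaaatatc
RNR2/YJL027C, chrX:392318-392360: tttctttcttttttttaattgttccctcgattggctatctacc

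The GFD2/SRO9, NOP2/GCD10 and NOP8/CTR9 gaps each held a PAC match, and the last also a Reb1 match. The TAH11/SSC1 gap held a TATA match on the minus strand and an Msn2 match. The KAR2/TAD2 gap held an Hsf1 match and 4 TATA matches, 3 of which overlapped each other. The AIM22/RTT101, CDC4/WWM1, GLN4/RPS28A and RNR2/YJL027C gaps held none of the 5. A match is only a run of letters, and the lack of one says nothing about the factor.

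Reads on annotated transcripts numbered 11441998 and 12685769 with rapamycin, against 32435994 and 29318499 without, so the libraries with rapamycin were the shallower ones. Reads outside every transcript were 50.45% and 49.95% with rapamycin, against 33.7% and 33.1% without. Changes are log2 fold changes of rapamycin over no rapamycin from edgeR's quasi-likelihood test, called at a Benjamini-Hochberg adjusted p under 0.05 over 5707 transcripts. Levels are CPM, counts scaled to library size with TMM, which centres the changes on the bulk of transcripts. A change shared by most genes is therefore not seen, and with bulk cultures a change in fewer cells and a smaller change in every cell cannot be told apart. With the fit limited to open reading frames, all changes shifted up by a median of 0.12.

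Of the 449 pairs with both sides tested, 250 had log2 fold changes of the same sign, or 55.7%, against 52.6% of all 4700 neighbouring pairs. A sign depends on where the scaling puts no change. In the 449 pairs the share was 53.2% with DESeq2's size factors and 55.0% with open reading frames only. Across these pairs Pearson's r between the plus-strand and minus-strand changes was 0.05 and Spearman's rho 0.09. These are descriptions across pairs that share their 4 libraries, and no p was computed. Pairs left out were RNR2/YJL027C, where YJL027C had 4 and 23 counts with rapamycin, against 6 and 12 without, and HXT17/YNR071C, where a single count fell on HXT17 in 1 library without rapamycin and none on YNR071C.

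Among the 898 tested members of these pairs, 138 were called higher and 221 lower with rapamycin, or 15.4% and 24.6%. Over all 5707 transcripts the shares were 19.3% higher and 26.7% lower, or 46.0% in either direction. The plus-strand sides held 79 higher and 112 lower, and the minus-strand sides 59 higher and 109 lower. Other systematic transcripts, 3821 of them, held 674 higher and 1245 lower, or 17.6% and 32.6%. The median log2 fold change was -0.09 over pair members, -0.19 over the other systematic transcripts and -0.03 over all transcripts. With the fit limited to open reading frames the calls among members split evenly, 174 higher and 174 lower, and with DESeq2's size factors they were 158 and 191.

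Calling the pairs by both sides, 10 had both sides higher, 30 both lower, 29 opposite calls, 221 a single called side (89 higher and 132 lower) and 159 none. Those are 2.23%, 6.68% and 6.46% of pairs for both higher, both lower and opposite. Over all 4700 tested pairs of neighbouring open reading frame transcripts, whatever their orientation and gap, the same 3 shares were 3.3%, 10.5% and 9.66%. The balance of both higher and both lower pairs moved with the scaling: the 3 counts were 14, 22 and 29 with DESeq2's size factors and 17, 22 and 28 with open reading frames only. Without no-rapamycin replicate 1 the 3 counts were 2, 11 and 6, and without no-rapamycin replicate 2 they were 2, 11 and 11. Without with-rapamycin replicate 1 they were 17, 44 and 45, and without with-rapamycin replicate 2 they were 25, 27 and 32.

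Partners were compared with the call of the first side. Partners of the 138 higher sides were higher in 20 cases (14.5%), lower in 29 (21.0%) and uncalled in 89. Partners of the 221 lower sides were lower in 60 cases (27.1%), higher in 29 (13.1%) and uncalled in 132. Partners of the 539 uncalled sides were higher in 89 cases (16.5%) and lower in 132 (24.5%). Over all transcripts 19.3% were called higher and 26.7% lower, and over all members of these pairs 15.4% and 24.6%. Whether the call of a partner depends on that of the first side was not tested.

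**Figure D1:**
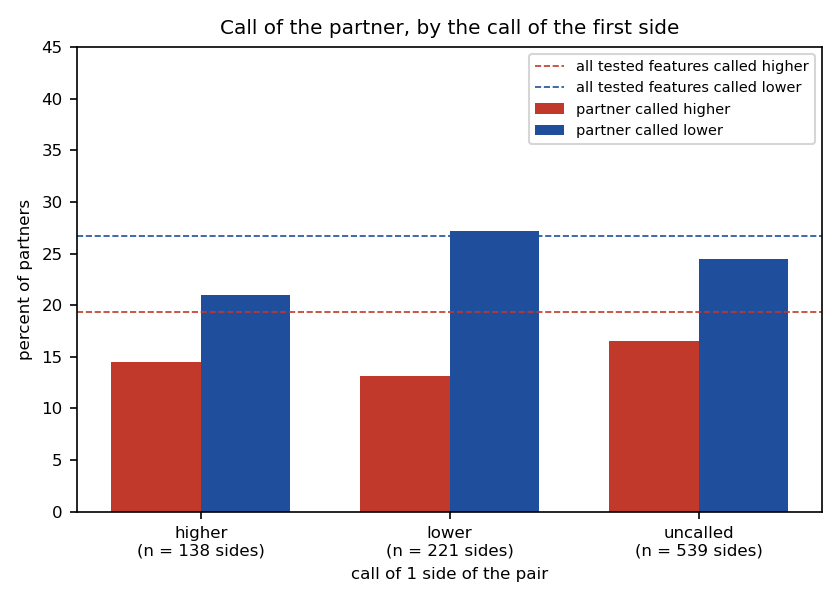
Percent of partners called higher (red) or lower (blue) with rapamycin, by the call of the first side, for the 138 higher, 221 lower and 539 uncalled sides of 449 divergent pairs. Dashed lines mark the 19.3% higher and 26.7% lower calls among all 5707 transcripts. The bars stay near or under the lines for all 3 kinds of side. Pair members, from which the partners come, were themselves called less often (15.4% higher and 24.6% lower).

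**Figure D2:**
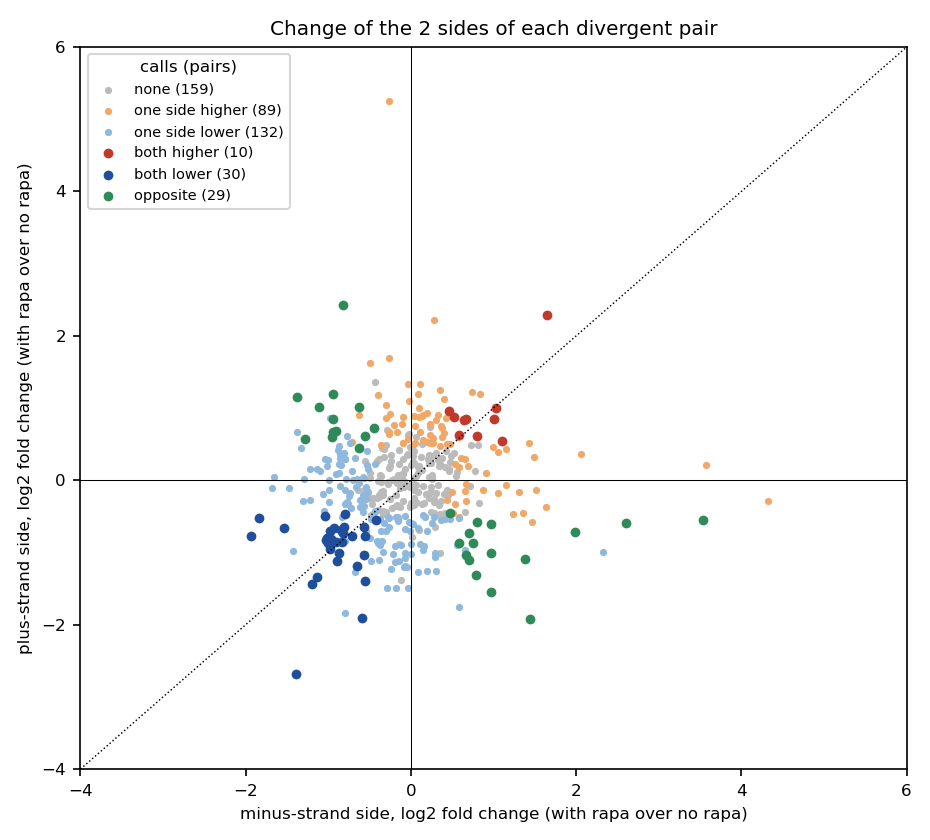
Log2 fold change (rapamycin over no rapamycin) of the plus-strand side against that of the minus-strand side, 1 point for each of 449 pairs, coloured by the calls of both sides. The cloud has little slope (r = 0.05), with the 10 both-higher pairs (red) at upper right, the 30 both-lower ones (dark blue) at lower left and the 29 opposite ones (green) in the other corners.

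A side that is called beside one that is not does not show a difference between them, so the difference was tested as a side-by-group interaction in edgeR, adjusted over all 4700 neighbouring pairs. The sides of 139 pairs (31.0%) changed differently, against 44.7% of all neighbouring pairs, and 189 had an unadjusted p under 0.05. The call classes were formed from the same changes that this test compares, so part of the split between them is built in. The test called all 29 opposite pairs, 39 of 89 pairs with a single higher side and 59 of 132 with a single lower side. It called 7 of 159 pairs with no called side, 5 of 30 with both sides lower and none of 10 with both higher, of which 2 had an unadjusted p under 0.05. Without no-rapamycin replicate 1 or 2, 22 and 25 pairs were called.

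The absolute difference between sides had a median of 0.57 on the log2 scale. That median was smaller than in the other kinds of neighbours. It was 0.81 in 452 divergent pairs with gaps over 300 and up to 1000 bp, 0.71 in 1256 tandem pairs and 0.86 in 299 convergent pairs with gaps of 1 to 300 bp. The share of pairs of the same sign was 55.7% here, against 54.2%, 53.0% and 51.5% in those 3 kinds. The share of pairs called different was 31.0% here, against 46.5%, 41.7% and 51.5% in those 3 kinds. Fewer members were called at all in close divergent pairs, and r was low in every kind: 0.05 here, 0.09 in the wider divergent pairs, 0.04 in tandem and 0.05 in convergent pairs. Whether the kinds differ was not tested.

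**Figure D3:**
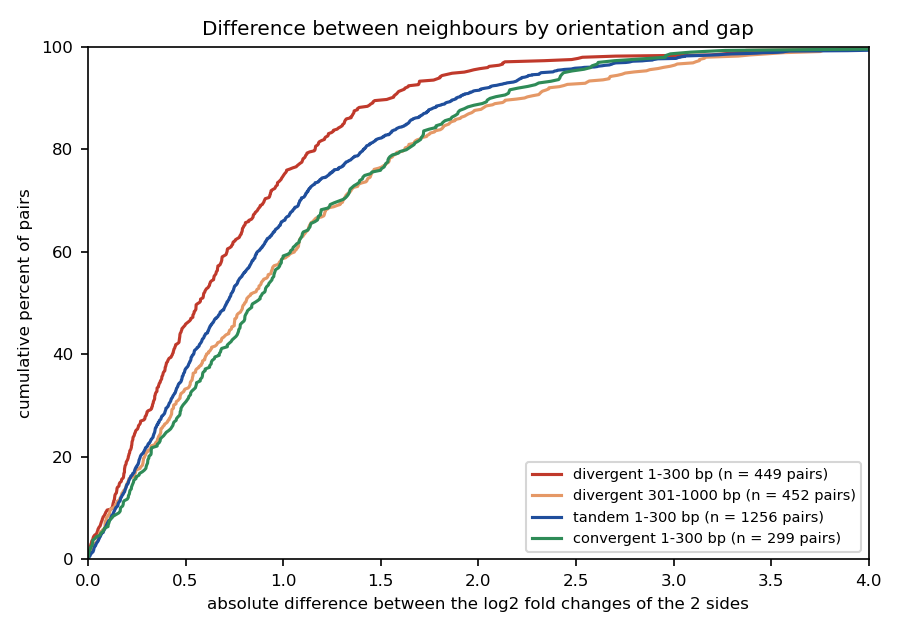
Cumulative percent of neighbouring pairs against the absolute difference between the log2 fold changes of the 2 sides, for 449 divergent pairs with gaps of 1 to 300 bp and 3 other kinds of neighbours. The curve of the close divergent pairs lies to the left, with a median of 0.57 against 0.71 to 0.86 for the others.

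The agreement between sides was given by gap and by overlap with other transcripts. In the 8 tested pairs with gaps of 100 bp or less r was -0.57, in the 260 with gaps over 100 and up to 200 bp it was -0.03, and in the 181 with gaps over 200 and up to 300 bp it was 0.16. The share of pairs of the same sign was 37.5%, 53.1% and 60.2% in that order. In the 128 tested pairs where neither transcript overlapped another annotated one, r was 0.25 and 61.7% had the same sign. In the 321 others r was -0.03 and the share 53.3%. In 52 divergent pairs outside the rule, whose transcripts overlapped each other, r was -0.50 and the median absolute difference 2.04.

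The correlation was also higher among abundant transcripts. In the 246 pairs with both sides at a mean log2 CPM of at least 5, r was 0.22 and 60.6% had the same sign, while in the 203 with a weaker side r was -0.08 and the share 49.8%. Under the same limit r was 0.17 and the share 58.5% in 287 wider divergent pairs, 0.07 and 55.9% in tandem pairs, and 0.09 and 52.8% in convergent pairs. With both limits together, a choice made after seeing the data, 69 pairs were left, with an r of 0.41, 47 pairs of the same sign (68.1%) and 19 pairs called different. With both limits r was 0.14 and the share 53.5% in the wider divergent pairs, 0.10 and 58.6% in 333 tandem pairs, and 0.10 and 54.3% in 186 convergent pairs. The 69 pairs held 1 with both sides higher, 11 with both lower and 2 with opposite calls. No p was computed for any of these values.

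The change of a single gene repeated between libraries far more closely than it was shared across a pair. For a single gene, the change taken from with-rapamycin replicate 1 over no-rapamycin replicate 1 and that from the other 2 libraries correlated with an r of 0.79 across the members of pairs, or 0.86 in pairs at the higher level. For 2 sides of a pair, each taken from different libraries, r was 0.06 and 0.03, or 0.23 and 0.17 at the higher level. Differences between replicates of a group correlated across sides with an r of 0.05 with rapamycin and -0.03 without. Levels per kilobase of transcript, on a log2 scale, correlated with an r of 0.18 with rapamycin and 0.10 without. The 2 sides differed in that level by a median of 1.00 log2 units, and the weaker side had the higher fold change in 205 of 449 pairs (45.7%).

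Of the 10 pairs whose sides were both higher, 6 passed the rule for naming. Groups did not overlap for any of their 12 members, as for 74.2% of all transcripts. The members were chosen by their calls and changes, so this separation is largely built in. GFD2 (YCL036W) had 78.3 and 77.2 CPM with rapamycin, against 14.8 and 16.9 CPM without. Its partner SRO9 (YCL037C), an RNA-binding protein with a La motif, had 2293 and 1730 CPM with rapamycin, against 626 and 657 CPM without. Both members stood well clear of the controls, with log2 fold changes of 2.29 ± 0.20 (SE, adjusted p = 8.36e-06) and 1.65 ± 0.26 (adjusted p = 0.00029). The difference of 0.66 ± 0.28 between the sides did not pass (adjusted p = 0.0859), but did with limma (adjusted p = 0.0488) and without with-rapamycin replicate 1 (adjusted p = 0.0246). YFH1 (YDL120W), the yeast frataxin, had 54.2 and 55.0 CPM with rapamycin, against 29.4 and 25.3 CPM without. EXP1 (YDL121C), which helps a plasma membrane proton pump leave the endoplasmic reticulum, had 33.8 and 62.4 CPM with rapamycin, against 17.4 and 29.8 CPM without. The YFH1 replicates lay close together, while the lower EXP1 library with rapamycin lay little above the higher one without, with log2 fold changes of 1.00 ± 0.20 (adjusted p = 0.00185) and 1.03 ± 0.32 (adjusted p = 0.0185).

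RNQ1 (YCL028W), a prion-forming protein, had 237 and 217 CPM with rapamycin, against 139 and 113 CPM without, and BIK1 (YCL029C), a microtubule plus-end protein, had 143 and 101.2 CPM with rapamycin, against 56.8 and 64.3 CPM without. Their log2 fold changes were 0.85 ± 0.17 (adjusted p = 0.00161) and 1.01 ± 0.20 (adjusted p = 0.00131), and the sides differed by -0.14 ± 0.28. In 2 pairs a ribosome assembly gene was joined by a gene outside that list. NOP2 (YNL061W), a methyltransferase of the large-subunit rRNA, had 832 and 567 CPM with rapamycin, against 391 and 394 CPM without, while GCD10 (YNL062C), a subunit of a tRNA adenosine methyltransferase, had 126 and 127 CPM with rapamycin, against 83.5 and 78.0 CPM without. The log2 fold changes were 0.83 ± 0.22 (adjusted p = 0.00904) and 0.65 ± 0.16 (adjusted p = 0.00631). NOP8 (YOL144W), a factor of large-subunit assembly, had 131 and 135 CPM with rapamycin, against 79.3 and 94.5 CPM without, and CTR9 (YOL145C), a subunit of the Paf1 elongation complex, had 1237 and 1177 CPM with rapamycin, against 698 and 687 CPM without. Their log2 fold changes were 0.61 ± 0.17 (adjusted p = 0.0101) and 0.80 ± 0.22 (adjusted p = 0.0101). BUG1 (YDL099W), a cis-Golgi protein, changed by 0.55 ± 0.16 (adjusted p = 0.016) and GET3 (YDL100C), the ATPase that delivers tail-anchored membrane proteins, by 1.10 ± 0.17 (adjusted p = 0.000327).

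The other 4 pairs with both sides higher, named although their choice followed from their values, were YKE2/PBA1, SPC3/SND2, CCT4/YDL144C and LOG1/ZAP1. YKE2 is a subunit of the prefoldin chaperone and PBA1 a proteasome assembly chaperone, and they changed by 0.88 ± 0.21 and 0.52 ± 0.18. CCT4, a subunit of the cytosolic chaperonin, changed by 0.63 ± 0.20 and YDL144C by 0.58 ± 0.18. SPC3, a signal peptidase subunit, changed by 0.85 ± 0.29, and SND2, a factor of targeting to the endoplasmic reticulum, by 0.67 ± 0.23. ZAP1, the zinc-responsive activator, changed by 0.46 ± 0.17 and LOG1 by 0.96 ± 0.19. In the 10 pairs with both sides higher the difference between sides had a median of 0.18, the smallest of the call classes. The classes were formed from these same changes. Many of the calls in the 10 pairs did not pass without 1 of the libraries. Without no-rapamycin replicate 1 EXP1 was not called (adjusted p = 0.145), nor were NOP8, NOP2, CTR9, BUG1, CCT4, YDL144C, SPC3, SND2, PBA1, YKE2 and ZAP1. Without no-rapamycin replicate 2 the calls of RNQ1, GCD10, NOP2, CTR9, BUG1, CCT4, YDL144C, SPC3, SND2, PBA1 and ZAP1 were lost. Without with-rapamycin replicate 1 those of CCT4, YDL144C and ZAP1 were, and without with-rapamycin replicate 2 that of SND2. Some of the lost calls kept their size: without no-rapamycin replicate 1 or 2 the log2 fold change was 0.81 and 0.82 for NOP2 and 0.80 and 0.78 for CTR9. ZAP1 was also lost without the filter on low counts.

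**Figure D4:**
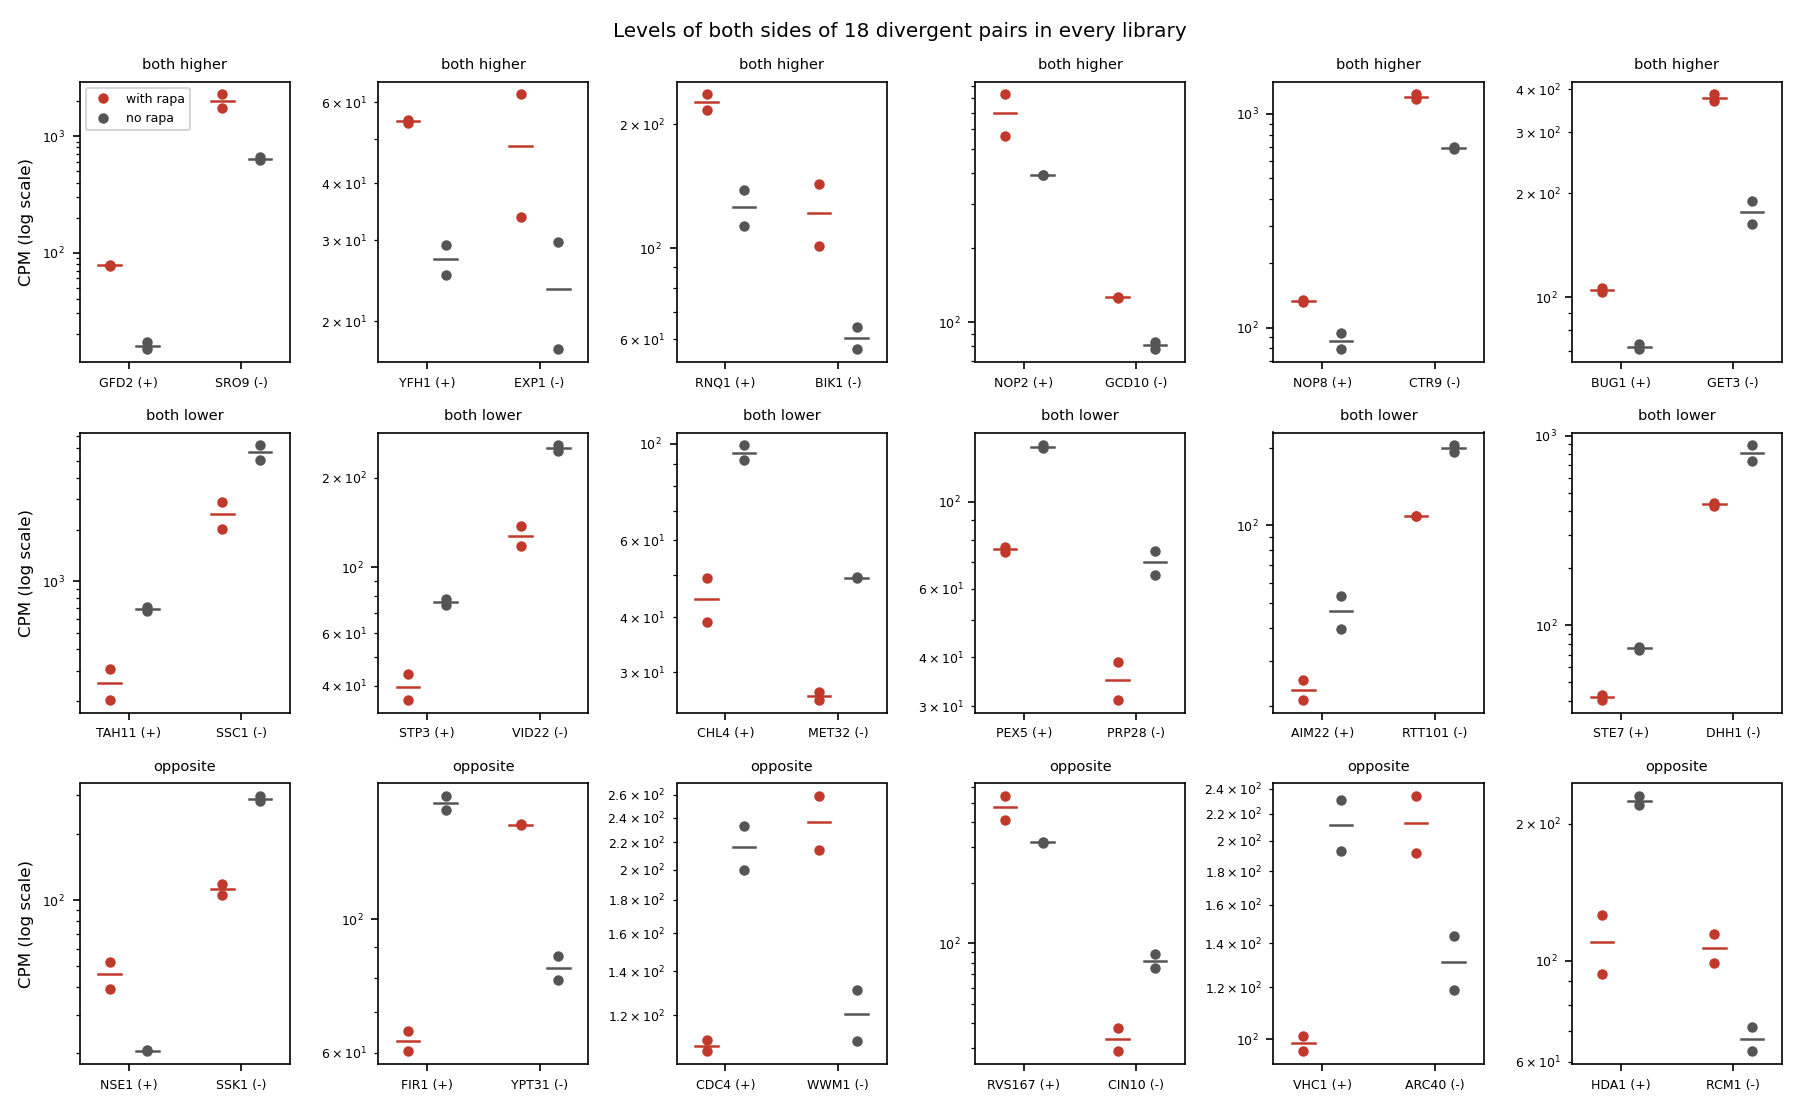
CPM (log scale) of both sides of 18 divergent pairs in each library, with rapamycin (red) left of no rapamycin (grey), and horizontal lines at the group means (arithmetic, n = 2 each). In the top row both sides lie higher with rapamycin, in the middle row both lower, and in the bottom row 1 side is higher and the other lower.

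Both sides were lower in 30 pairs, and 6 of them were named by the rule. TAH11 (YJR046W), the DNA replication licensing factor Cdt1, had 306 and 202 CPM with rapamycin, against 701 and 670.5 CPM without. SSC1 (YJR045C), the mitochondrial Hsp70, had 2903 and 2019 CPM with rapamycin, against 6212 and 5066 CPM without. Neither gene overlapped between groups, as for 74.2% of all transcripts. The log2 fold changes were -1.43 ± 0.23 (adjusted p = 0.000313) and -1.20 ± 0.34 (adjusted p = 0.0132). The gap of TAH11/SSC1 is 294 bp and neither transcript overlaps another. STP3 (YLR375W) had 43.7 and 35.8 CPM with rapamycin, against 74.9 and 78.5 CPM without and VID22 (YLR373C) had 138 and 118 CPM with rapamycin, against 257 and 246 CPM without, with changes of -0.95 ± 0.19 (adjusted p = 0.00157) and -0.98 ± 0.17 (adjusted p = 0.000537). CHL4 (YDR254W), a kinetochore protein, had 49.1 and 39.1 CPM with rapamycin, against 99.1 and 91.6 CPM without, and MET32 (YDR253C), an activator of methionine genes, had 25.9 and 27.0 CPM with rapamycin, against 49.5 and 49.3 CPM without. Their changes were -1.11 ± 0.19 (adjusted p = 0.000492) and -0.90 ± 0.21 (adjusted p = 0.00363).

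PEX5 (YDR244W), the receptor for peroxisomal matrix proteins, changed by -0.87 ± 0.16 (adjusted p = 0.000952) and its partner PRP28 (YDR243C), a splicing helicase, by -1.0 ± 0.20 (adjusted p = 0.00167). AIM22 (YJL046W), a lipoate ligase, had 21.1 and 25.1 CPM with rapamycin, against 39.8 and 53.2 CPM without, and RTT101 (YJL047C), a cullin, had 109 and 109 CPM with rapamycin, against 204 and 193 CPM without. Their changes were -1.01 ± 0.23 (adjusted p = 0.00402) and -0.87 ± 0.16 (adjusted p = 0.000859), across a gap of only 142 bp. STE7 (YDL159W), a kinase of the pheromone pathway, changed by -0.86 ± 0.18 (adjusted p = 0.00218) and DHH1 (YDL160C), a helicase that promotes mRNA decapping, by -0.90 ± 0.21 (adjusted p = 0.00363). In all 6 pairs the difference between the sides was within -0.25 to 0.13 and did not pass. These pairs were chosen among both-lower ones by the smaller change of their 2 sides, so small differences are partly built in. Without no-rapamycin replicate 1, SSC1 (adjusted p = 0.0993) and DHH1 were no longer called, and without replicate 2 AIM22 was not (adjusted p = 0.0765).

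In 5 of the 30 pairs with both sides lower, the 2 sides fell by different amounts, and these were chosen because the test called them. MMP1 (YLL061W), the S-methylmethionine permease, had 221 and 145 CPM with rapamycin, against 787 and 584 CPM without, while MHT1 (YLL062C), the homocysteine methyltransferase that uses S-methylmethionine, had 156 and 94.1 CPM with rapamycin, against 201.1 and 174 CPM without. MMP1 fell to a lower share of its control level, and the difference was -1.29 ± 0.24 (adjusted p = 0.00384). The difference was -1.33 ± 0.28 for YCT1/YLL056C (YCT1 is a cysteine transporter), 1.33 ± 0.28 for SAM35/KSP1, 1.17 ± 0.35 for CKI1/USB1 and -0.84 ± 0.29 for MMM1/LMO1. SAM35 works in mitochondrial outer membrane sorting, KSP1 is a protein kinase, CKI1 the choline kinase, USB1 an exonuclease acting on U6 RNA, and MMM1 a subunit of the endoplasmic reticulum to mitochondria tether. MMM1/LMO1 and CKI1/USB1 were also lost without 1 of the with-rapamycin libraries. Without either no-rapamycin library none of the 5 differences passed, with adjusted p from 0.0546 to 0.253. MHT1 and SAM35 were not called with DESeq2's size factors (adjusted p = 0.0676 and 0.0797), and MHT1, SAM35 and LMO1 not with the DESeq2 Wald test, with open reading frames only, or without either no-rapamycin library. MHT1 and SAM35 were also lost without with-rapamycin replicate 2.

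Opposite calls were found in 29 pairs, and the 6 named ones had sides that crossed. NSE1 (YLR007W), a subunit of the Smc5-Smc6 complex, had 39.3 and 52.5 CPM with rapamycin, against 20.5 and 20.7 CPM without. SSK1 (YLR006C), a response regulator of the osmotic stress pathway, had 119 and 105 CPM with rapamycin, against 298 and 282 CPM without. Their changes were 1.16 ± 0.23 (adjusted p = 0.00155) and -1.37 ± 0.17 (adjusted p = 5.13e-05), with a difference of 2.52 ± 0.29 (adjusted p = 0.000512). FIR1 (YER032W) had 60.3 and 65.2 CPM with rapamycin, against 152 and 160.4 CPM without, and YPT31 (YER031C), a Rab GTPase of the late Golgi, had 144 and 144 CPM with rapamycin, against 79.2 and 87.0 CPM without. The difference was -2.11 ± 0.25 (adjusted p = 0.000548). CDC4 (YFL009W), an F-box protein of the SCF ubiquitin ligase, had 110.0 and 106 CPM with rapamycin, against 233 and 199.5 CPM without and WWM1 (YFL010C) had 259 and 214 CPM with rapamycin, against 109 and 131 CPM without, in a pair with no overlapping transcript. CDC4 was lower and WWM1 higher in both libraries with rapamycin, with a difference of -1.97 ± 0.27 (adjusted p = 0.000951).

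RVS167 (YDR388W), a BAR domain protein of endocytosis, changed by 0.58 ± 0.20 (adjusted p = 0.0291) and CIN10 (YDR387C) by -1.29 ± 0.20 (adjusted p = 0.000335). VHC1 (YBR235W), a vacuolar cation-chloride cotransporter, changed by -1.10 ± 0.17 (adjusted p = 0.000242) and ARC40 (YBR234C), a subunit of the Arp2/3 complex, by 0.70 ± 0.18 (adjusted p = 0.00659). HDA1 (YNL021W), a histone deacetylase, changed by -1.03 ± 0.18 (adjusted p = 0.000647) and RCM1 (YNL022C), an rRNA methyltransferase, by 0.66 ± 0.17 (adjusted p = 0.00804). The differences of these 3 pairs were 1.86 ± 0.31, -1.80 ± 0.24 and -1.71 ± 0.29. Without no-rapamycin replicate 1 or 2 the difference stayed about as large but no longer passed for RVS167/CIN10 (1.73 and 1.98) and HDA1/RCM1 (-1.59 and -1.83), and RVS167 lost its own call without either of those libraries or with-rapamycin replicate 1, ARC40 without no-rapamycin replicate 2 and RCM1 without no-rapamycin replicate 1. Of the 29 opposite pairs, 13 had the plus-strand side higher.

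A further opposite pair, singled out after its values were seen, held a chaperone gene. KAR2 (YJL034W), the Hsp70 of the endoplasmic reticulum, had 1795 and 1133 CPM with rapamycin, against 5789 and 5316 CPM without. TAD2 (YJL035C), a subunit of the tRNA adenosine deaminase, had 25.3 and 41.2 CPM with rapamycin, against 13.1 and 11.4 CPM without. The groups lay far apart on both sides, and the log2 fold changes were -1.92 ± 0.34 (adjusted p = 0.000765) and 1.45 ± 0.29 (adjusted p = 0.00168). The difference was -3.38 ± 0.46 (adjusted p = 0.000957), and TAD2 overlapped another annotated transcript.

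The gene lists were placed unevenly among these pairs. Of 135 cytosolic ribosomal protein genes 2 were members of such a pair (1.48%), against 19.1% of all systematic transcripts, and the shares were 4.65% of 43 oxidative phosphorylation genes, 6.45% of 31 Hsf1 chaperones, 8.57% of 35 Msn2 and Msn4 stress targets and 8.77% of 57 Gcn4 amino acid synthesis genes. Mitochondrial ribosomal proteins (31.5% of 73), ribosome assembly (28.7% of 157), G1/S and replication (28.3% of 60) and the proteasome (28.2% of 39) were above it, tRNA synthetases were at 18.8% of 32 and none of 11 histone genes was a member. In whole, 119 of 135 cytosolic ribosomal protein genes were called higher and 22 of 31 chaperones lower. Over all transcripts 19.3% were called higher and 26.7% lower. The ribosomal protein and chaperone lists each had 2 members in the pairs.

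RPS9B and RPS28A were the 2 cytosolic ribosomal protein genes. RPS28A (YOR167C), a protein of the small subunit, had 183 and 255 CPM with rapamycin, against 47.8 and 57.2 CPM without, while GLN4 (YOR168W), the glutaminyl-tRNA synthetase on the other strand, had 783 and 692 CPM with rapamycin, against 645 and 501 CPM without. RPS28A rose by 2.06 ± 0.20 (adjusted p = 1.2e-05), GLN4 was not called (0.36 ± 0.21, adjusted p = 0.183), and the difference was -1.68 ± 0.33 (adjusted p = 0.00463), or -1.36 (adjusted p = 0.0942) without no-rapamycin replicate 1. GLN4 was called, at 0.55 (adjusted p = 0.0261), without with-rapamycin replicate 2. RPS9B (YBR189W) had 1215 and 1118 CPM with rapamycin, against 379.7 and 344 CPM without and NTC20 (YBR188C), a splicing factor, had 5.43 and 12.1 CPM with rapamycin, against 9.56 and 11.6 CPM without. The difference was 2.02 ± 0.41 (adjusted p = 0.00529), which did not pass without no-rapamycin replicate 1 or 2 (adjusted p = 0.0742 and 0.105). RPS9B and RPS28A each have a near-identical copy elsewhere in the genome, so their counts are uncertain in that respect.

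The 45 ribosome assembly genes on 43 pairs rose in 15 cases and fell in 2, with a median of 0.31, against a median of -0.03 over all transcripts, of which 19.3% were called higher and 26.7% lower. In the whole list 49 of 157 rose and 7 fell. Their partners rose in 4 cases, among them RRP3, which is itself on the list, and fell in 6, with a median of 0.00. DRS1, a large-subunit helicase, changed by 1.22 ± 0.21 beside COX17 at 0.74 ± 0.43 (adjusted p = 0.176), and LTV1, a small-subunit export factor, by 1.34 ± 0.18 beside RPC25 at 0.11 ± 0.30 (adjusted p = 0.793). NSA1 rose by 0.44 ± 0.16, while TAF6, a TFIID and SAGA subunit across the gap, fell with a change of -0.62 ± 0.16. Only 2 pairs had an assembly gene on both sides. In LCP5/NSA2 the changes were 0.29 ± 0.16 and 0.21 ± 0.21, neither called, and in SSF1/RRP3 they were 0.31 ± 0.17, not called, and 0.61 ± 0.17 (adjusted p = 0.0108). NSA1 was not called without the filter on low counts, and NSA1 and RRP3 were not called without either no-rapamycin library (adjusted p from 0.105 to 0.36), nor was TAF6 without replicate 1 of that group (adjusted p = 0.103). SSF1 was called in the fit limited to open reading frames (adjusted p = 0.0451).

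Among the 23 mitochondrial ribosomal protein genes 1 rose and 1 fell, while in the whole list 2 of 73 rose and 7 fell. Their partners rose in 3 cases and fell in 7, near the shares of all transcripts (19.3% higher and 26.7% lower). RSM25 rose by 0.96 ± 0.23 across a gap of 121 bp from YIL092W, which fell with a change of -1.55 ± 0.30. The Msn2 and Msn4 stress targets had 3 members in pairs, of which 2 fell, against 19 lower and 4 higher of 35 in the whole list. RTN2 and MSC1, the members that fell, had a partner that also fell. RTN2 changed by -0.77 ± 0.17 and HEM3, of heme synthesis, by -0.56 ± 0.17. MSC1 changed by -0.81 ± 0.20 and RSC9, a chromatin remodeller subunit, by -0.65 ± 0.16. TPS3 was not called (-0.56 ± 0.23, adjusted p = 0.058), nor was its partner YMR262W (-0.13 ± 0.25, adjusted p = 0.694). The Gcn4 list had 5 members in pairs, of which 2 rose and 1 fell, against 28 and 8 of 57 in the whole list. GCN4, given below, was the member that fell. SER2 changed by 0.59 ± 0.18 beside CIR1 at 0.26 ± 0.19, and LYS5 by 0.52 ± 0.26 beside PEX14 at 0.37 ± 0.22. Neither difference passed (adjusted p = 0.353 and 0.761). THR1, the homoserine kinase, changed by 1.18 ± 0.19. Its partner MAS2, a mitochondrial processing peptidase subunit, was at -0.40 ± 0.18 (adjusted p = 0.0827), and the difference was 1.60 ± 0.25. ILV1, the threonine deaminase, changed by 0.21 ± 0.19 (adjusted p = 0.387) beside YER085C at 3.57 ± 0.53, a gene with only 10.9 and 12.3 CPM with rapamycin, against 1.06 and 0.884 CPM without. Without no-rapamycin replicate 1 the calls of MSC1, HEM3 and RSM25 were lost, without replicate 2 those of RSC9, HEM3 and the THR1/MAS2 difference (adjusted p = 0.0528), and without with-rapamycin replicate 2 that of HEM3. MAS2 was called lower without with-rapamycin replicate 1, at -0.64 (adjusted p = 0.00243).

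The G1/S and replication list had 17 members in pairs, of which 1 rose and 2 fell, against 7 and 12 of 60 in the whole list and 19.3% and 26.7% of all transcripts. SMC3, a cohesin subunit, rose by 0.96 ± 0.17 while JEM1, an endoplasmic reticulum J protein, fell with a change of -0.61 ± 0.18. DPB2, a subunit of DNA polymerase epsilon, and CSA1 both fell, with changes of -0.77 ± 0.18 and -0.71 ± 0.20. JEM1 was not called by the DESeq2 Wald test, without no-rapamycin replicate 1 or with-rapamycin replicate 2, nor CSA1 without no-rapamycin replicate 2. The 11 proteasome members had 2 that rose, near the share of all transcripts, the 6 tRNA synthetases 1 that rose and 1 that fell, and the 2 oxidative phosphorylation members 1 that rose, QCR2, at 0.92 ± 0.19 beside RPC82 at -0.26 ± 0.16 (adjusted p = 0.203).

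No closer agreement was seen across the shortest gaps. However, the RNR2/YJL027C pair was not tested, and YEL008W and BIL2 had few counts. A short gap and a low level were not separated in these pairs. RNR2 (YJL026W), a ribonucleotide reductase subunit, lies 44 bp from YJL027C, had 521 and 426 CPM with rapamycin, against 294 and 233 CPM without and rose by 0.85 ± 0.20 (adjusted p = 0.00424). GCN4 (YEL009C), the activator of amino acid synthesis, 66 bp from YEL008W, had 441 and 441 CPM with rapamycin, against 864 and 700.0 CPM without and fell with a change of -0.83 ± 0.21 (adjusted p = 0.00621). YEL008W had 54 and 78 counts with rapamycin, against 13 and 44 without. MXR2 (YCL033C), a methionine sulfoxide reductase 71 bp from STE50, changed by 1.49 ± 0.40 (adjusted p = 0.00972) and STE50 (YCL032W), an adaptor of a MAP kinase kinase kinase, by 0.32 ± 0.20 (adjusted p = 0.21). PUF4 (YGL014W), an RNA-binding protein, 79 bp from BIL2, had 493 and 435 CPM with rapamycin, against 686 and 669 CPM without, and BIL2 (YGL015C) had 51 and 95 counts with rapamycin, against 19 and 10 without. The calls of YEL008W, MXR2 and PUF4 were lost without either no-rapamycin library, those of BIL2 and RNR2 without replicate 2 of that group, that of GCN4 without replicate 1, and that of PUF4 also without with-rapamycin replicate 2, with DESeq2's size factors or with open reading frames only. The STE50/MXR2 difference of -1.16 ± 0.37 passed (adjusted p = 0.0333), but not without either no-rapamycin library, nor with limma (adjusted p = 0.0504).

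At the limit of the rule, YLR400W/BDF1 (299 bp) and RPS9B/NTC20 (300 bp) lay just inside it and SRX1/CYT2 (a single base wider) just outside. BDF1 (YLR399C), a bromodomain protein of the transcription machinery, had 471 and 319 CPM with rapamycin, against 488 and 463 CPM without and changed by -0.27 ± 0.21 (adjusted p = 0.323), or by -0.61 (adjusted p = 0.00845) without with-rapamycin replicate 1 and 0.08 (adjusted p = 0.775) without with-rapamycin replicate 2. YLR400W had 94 and 50 counts with rapamycin, against 2 and 7 without, in a gap where the noncoding transcript SUT709 was also annotated. SRX1 and CYT2 had log2 fold changes of -2.31 and -1.32.

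The DNA near the transcript starts of the members differed in letters from that of other genes. In windows from 250 bases before to 50 after the start, a TATA form was found for 20.7% of 902 members, against 44.0% of 3827 other systematic transcripts and 39.5% of all 4729. PAC was found for 9.87% of members, against 3.63% of the others and 4.82% of all. The other 3 motifs were about as frequent in members as in the rest: Reb1 7.98% against 9.64% (9.33% of all), Hsf1 14.1% against 13.5% (13.6% of all) and Msn2 19.0% against 22.4% (21.8% of all). Windows of the 2 sides of a pair overlap, so a match can count for both. With a median gap of 191 bp, most windows of members also reach into the partner's transcript. What the windows of the other transcripts reach into was not examined, so the shares do not compare promoter DNA alone.

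**Figure D5:**
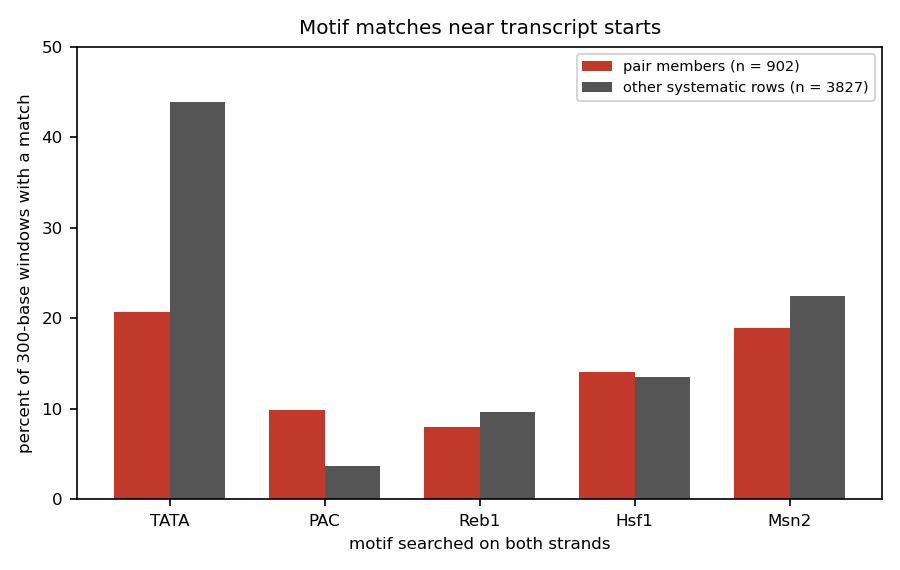
Percent of 300-base windows around transcript starts that hold each of 5 motifs on either strand, in 902 pair members (red) and 3827 other systematic transcripts (grey). The TATA bar is lower in members (20.7% against 44.0%) and the PAC bar higher (9.87% against 3.63%).

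By call, PAC was found in 15.8% of the 139 members called higher, 4.98% of the 221 lower and 10.4% of the 539 uncalled. TATA was found in 21.6%, 20.8% and 20.6%. The 139 are the 138 of the tested pairs and RNR2, whose pair was left out. In the gaps themselves, TATA was found in 76 of 451 (16.9%) and PAC in 43 (9.53%). PAC was found in 4 of the 10 gaps between sides that were both higher (those of GFD2/SRO9, NOP2/GCD10, NOP8/CTR9 and YFH1/EXP1), in 14 of 89 with a single higher side, 8 of 132 with a single lower side, 16 of 159 with no called side, 1 of 30 between sides that were both lower and none of 29 between opposite sides. The class of 10 held only 2 pairs without either no-rapamycin library. TATA was found in 9 of the 30 both-lower gaps, TAH11/SSC1 among them, and in 1 of the 10 both-higher ones. These are counts in sequences and carry no test.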

How the data were processed

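Newly made RNA labelled with 4-thiouracil was measured in 2 libraries with rapamycin and 2 without. The authors deposited raw read counts for each annotated transcript of each library, with the annotation. The submitters' processing notes name STAR 2.3.0, SAMtools and HTSeq as tools, with R64 and sacCer3 as builds. The strand setting and read filters are not given in the sources used here, but of 254 transcripts wholly covered by a transcript on the other strand, 204 were counted in all 4 libraries. Rows that name no transcript entered neither library sizes nor tests, and ambiguous reads were at most 0.0930%. No library lists any read with several alignments. Positions were checked on R64: all 4842 transcripts matched by name held their open reading frame, and gap sequences were read from the R64 genome of RefSeq.

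Counts were fitted with edgeR 4.0.16 in R 4.3.3 (TMM, the default expression filter, a two-sided quasi-likelihood F-test on group, Benjamini-Hochberg over 5707 transcripts). SEs were taken as |log2 fold change| over the root of F. For each of 4700 neighbouring pairs the counts of both sides in all libraries, 8 values, were fitted with library, side and side by group, and the last term was tested, adjusted over all 4700. A gene can be in several neighbouring pairs, so these tests are not independent. The difference is the plus-strand change minus the minus-strand one. Scripts were tested on simulated data in which few transcripts were changed. There the pair test called 24.1% of true differences of 1 log2 unit and 94.6% of those of 2. The gene fit called 64.0% and 92.0%. Of the calls, 5.6% were false in the pair test and 7.1% in the gene fit. A difference that did not pass is therefore not shown to be absent. Alternatives were no filter, DESeq2 size factors and the DESeq2 1.42.0 Wald test, limma 3.58.1 on the log2 ratio of the sides, a replicate block, open reading frames only, each library left out, other gap limits, and pairs limited by name, noncoding transcript, overlap or level. With 2 libraries a group the precision is limited, and replicates differed by far more than counting error (chi-square per degree of freedom 65.7 with rapamycin and 80.4 without). The pairs, lists and naming rules were chosen with earlier results of these data known. Named genes were the textbook pairs, the 6 pairs of each kind with the largest smaller change (both higher, both lower) or difference (opposite), the extreme ribosomal protein and chaperone pairs, all at log2 CPM 5 or above on average and with standard symbols, and the pairs with the 4 smallest and 2 largest gaps. Other named pairs were picked after their values were seen.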

Additional observations from a re-analysis of the deposited data

Results flagged for a closer look

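Reads outside every annotated transcript, which enter no comparison of the pairs, made up 50.45% and 49.95% of reads in the 2 libraries with rapamycin, against 33.7% and 33.1% in the 2 without. Both libraries with rapamycin lay above both without it.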

How the results depend on the processing

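No count over all pairs moved by more than 1.5 times without the low-count filter, with DESeq2's size factors or Wald test, with limma, with names that have a letter suffix, or without pairs that have a noncoding transcript in the gap. The 2 replicate numbers deviated together with an r of 0.23 over 5707 transcripts, and with only 2 pairs of numbers they were not taken to pair the libraries. With the replicate block the counts were 15 pairs both higher, 39 both lower, 40 opposite and 176 different, and the other values were an r of 0.05 and a same-sign share of 55.7%. The block also called MAS2 lower, at -0.41 (adjusted p = 0.0333). Open reading frames only gave 17 pairs both higher. Leaving out a library gave 2 to 25 pairs both higher, 11 to 44 both lower, 6 to 45 opposite and 22 to 189 different, with a same-sign share of 52.9% to 56.0% and an r of 0.02 to 0.08; a lone library is then assumed to vary like the other group. With gaps up to 200 bp, 5 pairs were both higher, 11 both lower, 18 opposite and 83 different, and r was -0.058. With gaps up to 500 bp, 54 were both lower, 58 opposite and 225 different, and r was 0.012. With no overlapping transcript, 1 was both higher, 14 both lower, 2 opposite and 35 different, the same-sign share was 61.7% and r 0.25. With both sides at a log2 CPM of 5 or more, 18 were opposite and 76 different, the share was 60.6% and r 0.22. With both limits, chosen after seeing the data, the counts were 1, 11, 2 and 19, the share 68.1% and r 0.41. Limits on the pairs leave fewer or more of them to count, and the cause of the other changes was not tested.

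For the named genes and pair differences, 765 of 855 gene values and 326 of 376 pair values kept their direction and call over these alternatives, and 80 and 31 lost the call. Values that changed sign on leaving out a library are given as the range over the 4 libraries left out. Gene changes ranged over -0.61 to 0.079 for BDF1, -0.0074 to 0.43 for NSA2, -0.87 to 0.16 for NTC20 and -0.25 to 0.41 for RPC25. Pair differences ranged over -0.38 to 0.12 for AIM22/RTT101, -0.11 to 0.21 for CCT4/YDL144C, -0.18 to 0.046 for DPB2/CSA1, -0.091 to 0.29 for LCP5/NSA2, -0.12 to 0.44 for NOP2/GCD10, -0.046 to 0.32 for PEX5/PRP28, -0.37 to 0.10 for RNQ1/BIK1, -0.084 to 0.38 for RSC9/MSC1, -0.13 to 0.20 for STE7/DHH1, -0.041 to 0.092 for STP3/VID22 and -0.51 to 0.48 for YFH1/EXP1.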
